A study of Mus musculus with 7 samples.

Results

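The cytosolic ribosomal protein genes encode the proteins of the ribosome that translates messenger RNA in the cytoplasm. They were chosen by name and not by any measured value: protein-coding genes whose first symbol begins with Rpl or Rps followed by a digit, together with Rpsa, Rplp0, Rplp1 and Rplp2, without Rps27l, the S6 kinases (Rps6k) and pseudogenes. The rule found 81 of the 17537 genes in the table, of which 48 carry large-subunit symbols and 32 small-subunit symbols. The remaining gene, Rps19bp1, encodes a protein that binds RPS19 and is not itself a ribosomal subunit. All 81 genes passed the filter on low values, lay on 19 chromosomes and were measured in all 7 libraries.

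The large subunit joins amino acids and the small subunit reads the codons, and a ribosome holds its proteins in fixed proportion, so that their genes are usually expressed at similar levels from scattered loci. Their messenger RNAs are short, abundant and stable, and most begin with a run of pyrimidines, the 5′ terminal oligopyrimidine (TOP) tract, through which mTOR and LARP1 control their translation. In the kidney, as in other tissues, ribosomal protein messenger RNA is made in every cell type.

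Kidney RNA came from 7 C57BL/6 mice, 1 polyA-selected, strand-specific library per mouse, described in the labels as male and 8 to 10 weeks old, whereas the methods of the study mention both sexes. By those methods hyperglycaemia was induced at 8 weeks of age and tissue was taken after 22 weeks of it. The labelled age is therefore not that at sampling. The control group C held 3 nondiabetic mice (replicates 2, 8 and 9). The group DM-22 held 2 mice (replicates 1 and 2) made hyperglycaemic with streptozotocin, a toxin of the insulin-producing beta cells, at 60 mg/kg on 5 days, and kept hyperglycaemic until week 22. The group DM+SGLT2i held 2 mice (replicates 1 and 2) given the same streptozotocin and then, from week 16 and for 6 weeks, the glucose-lowering SGLT2 inhibitor dapagliflozin at 25 mg/kg. This is a toxin model of insulin deficiency, and each library is bulk kidney, in which more ribosomal protein RNA per cell and more cells rich in it cannot be told apart. Levels are given in CPM, reads scaled to each library's normalised total.

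The libraries held between 46456125 and 56541594 reads on the genes of the table, so that 1 read was worth at most 0.0231 CPM. The proximal tubule, the largest compartment of the kidney cortex, was present in every library, with its 5 markers (Lrp2, Cubn, Slc34a1, Slc5a2 and Slc5a12) summing to between 4741 CPM in C replicate 2 and 14017 CPM in C replicate 8. C replicate 2 stood apart from the other controls: Cdkn1a, which encodes the cell cycle inhibitor p21 that the study is about, was at 72.7 CPM there, against 4.63 and 5.36 CPM in C replicates 8 and 9 and 52.6 to 123 CPM in the 4 diabetic libraries. DM+SGLT2i replicate 1 held adipose RNA, with Adipoq, Plin1 and Cfd summing to 809 CPM against 0.751 to 23.7 CPM in the other 6 libraries. The comparisons of the ribosomal protein genes are given with and without these libraries.

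The 81 genes made up between 1.76% and 3.0% of all reads on listed genes. Their median level was 269.0 CPM, against 22.9 CPM over the 13976 genes tested, and 27 of them were among the 500 protein-coding genes with the highest CPM. 75 genes lay above 100 CPM and 6 below. Their transcripts were short, with a median length of 729 bases against 2712 over all genes tested, and with a median coding length of 456 bases.

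Levels of different genes were compared per kilobase of the annotated transcript. The highest was Rpl41, which encodes the smallest ribosomal protein, at 978 CPM per kb. Rplp1, an acidic protein of the stalk that recruits elongation factors, followed at 894 CPM per kb, and Rps2, a small-subunit protein near the entry of the messenger RNA, at 793 CPM per kb. At the other end lay the muscle-type paralog Rpl3l at 1.22 CPM per kb, Rps19bp1 at 15.7 CPM per kb and the paralogs Rpl22l1 and Rpl7l1 at 51.3 and 55.7 CPM per kb. Rps20 also came out low, at 50.9 CPM per kb, on an annotated transcript of 3706 bases whose coding part is only 360 bases, and its level per gene, 133 to 240 CPM, was that of an ordinary member. Above 100 CPM the genes spanned a 19.2-fold range per kilobase with Rps20 and a 6.14-fold range without it, the next lowest being Rpl12 at 159 CPM per kb.

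**Figure D1:**
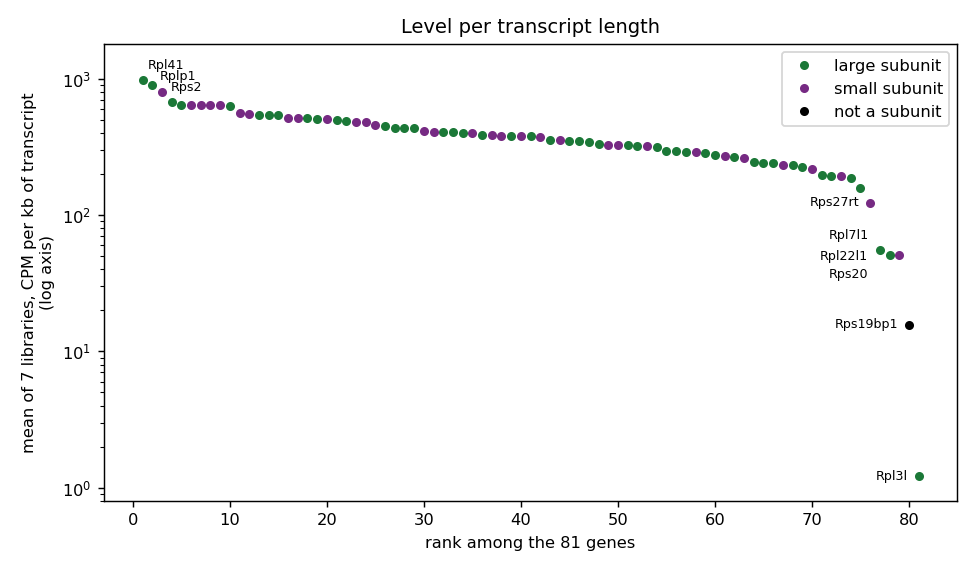
Mean level of each of the 81 genes over the 7 libraries in CPM per kb of transcript (log axis), in rank order, coloured by subunit. Most points form a shallow slope from Rpl41 at 978 CPM per kb, with Rpl3l, Rps19bp1 and the paralogs Rpl22l1 and Rpl7l1 below it.

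The genes were high or low together from library to library. Summed over the 81 genes, the level was 28648 CPM in C replicate 2, 17862 in C replicate 8, 18418 in C replicate 9, 26373 and 27563 in DM-22 replicates 1 and 2, and 18343 and 24742 in DM+SGLT2i replicates 1 and 2. The highest library, a control, thus held 1.60 times the lowest, also a control. The group means were 21642 ± 6073 CPM in C (SD, n = 3), 26968 ± 842 CPM in DM-22 (SD, n = 2) and 21543 ± 4525 CPM in DM+SGLT2i (SD, n = 2). The 2 DM-22 libraries lay 1.05 times apart, and C replicates 8 and 9 also lay close together. As a share of reads, without TMM factors, DM-22 replicates 1 and 2 stood at 2.69% and 2.46% and DM+SGLT2i replicate 2 at 2.42%. Within C, replicate 2 held 1.58 times the mean of replicates 8 and 9, and within DM+SGLT2i, replicate 2 held 1.35 times replicate 1.

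Gene by gene, the pattern was the same. As the deviation of log2(CPM + 0.5) from a gene's own mean over the 7 libraries, the median of the 81 genes was 0.34 in C replicate 2, −0.35 and −0.30 in C replicates 8 and 9, 0.21 and 0.28 in the DM-22 replicates, −0.32 in DM+SGLT2i replicate 1 and 0.13 in DM+SGLT2i replicate 2. Over all genes tested these medians stayed between −0.01 and 0.01. In C replicate 2, 80 of the 81 genes lay above their own mean, in DM-22 replicates 1 and 2 it was 78 and 81, and in DM+SGLT2i replicate 2 it was 80. In C replicate 8, C replicate 9 and DM+SGLT2i replicate 1 the number was 0, 2 and 0. The lowest library was C replicate 8 for 43 genes, DM+SGLT2i replicate 1 for 32 and C replicate 9 for 6, and the highest was C replicate 2 for 53, DM-22 replicate 2 for 18 and DM-22 replicate 1 for 10. Both subunits took part, with medians in C replicate 2 of 0.32 for the large and 0.36 for the small subunit, and in C replicate 8 of −0.31 and −0.38.

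**Figure D2:**
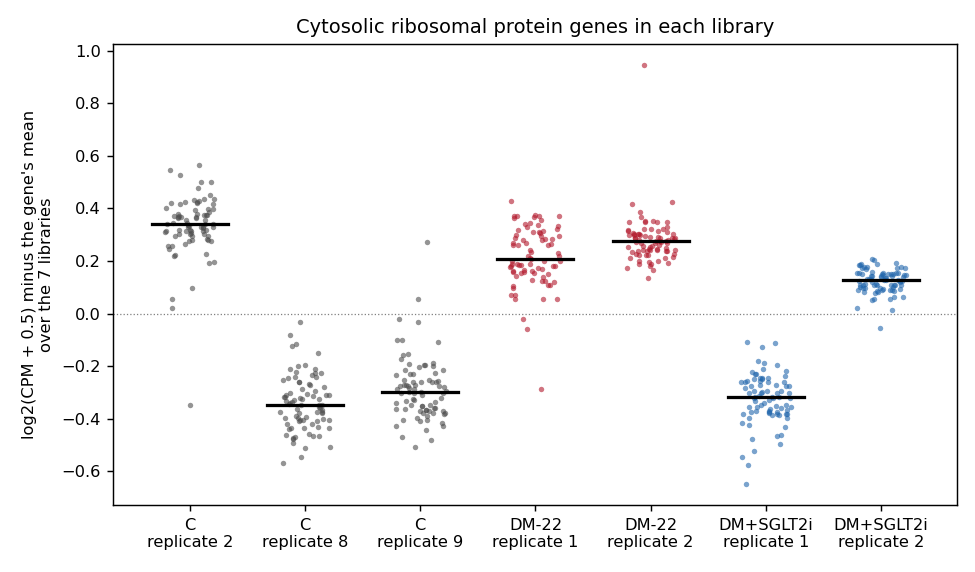
Each point is 1 of the 81 genes in 1 library, as log2(CPM + 0.5) minus that gene's mean over the 7 libraries, with a bar at the median. The points of C replicate 2, both DM-22 libraries and DM+SGLT2i replicate 2 sit above 0 and those of C replicates 8 and 9 and DM+SGLT2i replicate 1 below it.

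Most of this spread was shared. A gene's SD over the 7 libraries had a median of 0.33 on the log2 scale, against 0.26 over all genes tested. Once each library's median over the 81 genes was subtracted, the median SD was 0.08, and a single component carried 92.8% of the variance of the 81 genes. Rps6, the small-subunit protein that S6 kinase phosphorylates, followed the common level most closely, with 494 CPM in C replicate 2, 314 and 325 in C replicates 8 and 9, 445 and 468 in DM-22 and 321 and 431 in DM+SGLT2i. Its distance from the common level was at most 0.03 (log2) in any library.

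A few genes followed it less. Rpl4, a large-subunit protein lining the exit tunnel, had the smallest spread (SD 0.12, log2), with 574, 507 and 498 CPM in C replicates 2, 8 and 9, 515 and 611 CPM in DM-22 and 491 and 571 CPM in DM+SGLT2i. Relative to the other genes it was therefore high where they were low, by 0.27 and 0.19 (log2) in C replicates 8 and 9 and by 0.19 in DM+SGLT2i replicate 1. In C replicates 8 and 9, Rpl7l1, a paralog of Rpl7, stood at 0.32 and 0.26 and Rps19bp1 at 0.23 and 0.28. Rpl5, which binds 5S ribosomal RNA together with Rpl11, stood 0.20 above the common level in both of these controls. In DM+SGLT2i replicate 1, Rps19bp1 was at 0.001 and Rpl5 at −0.11. Rpl3l had the largest spread (SD 0.49) but also by far the fewest reads, with 1.12, 1.39 and 1.99 CPM in C, 1.19 and 3.47 CPM in DM-22 and 0.978 and 1.59 CPM in DM+SGLT2i. DM-22 replicate 2 was its highest library, unlike most other members.

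The spread was wider for the genes with the shortest proteins. Among the 27 genes with a coding length of up to 400 bases the median SD was 0.35 (log2), and among the 16 with more than 700 bases it was 0.27. Across the 81 genes, which share their libraries and are not independent, Spearman's rho of the SD with coding length was −0.39, and −0.44 over the 80 genes without Rpl3l.

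**Figure D3:**
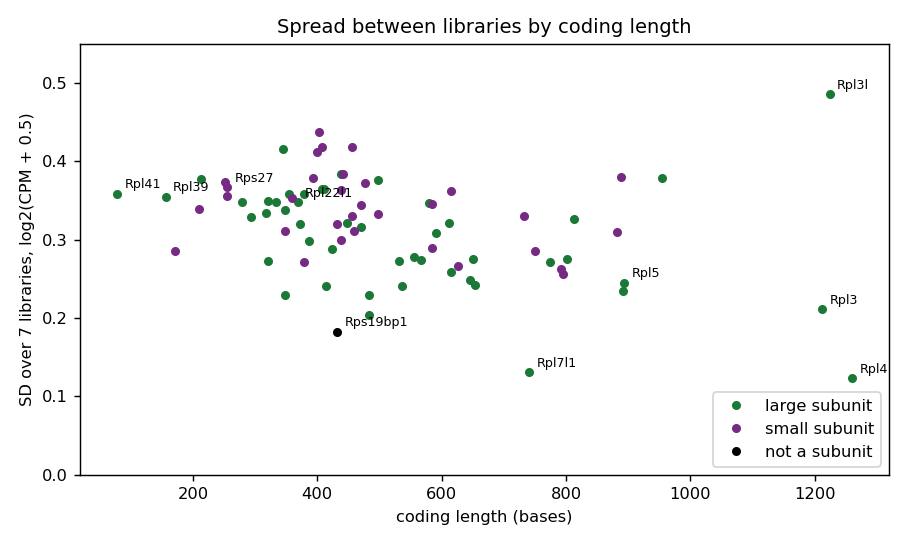
SD of log2(CPM + 0.5) over the 7 libraries against coding length in bases, 1 point per gene, coloured by subunit. The short genes lie mostly above 0.3 and Rpl4, Rpl3 and Rpl7l1 among the longer ones below 0.25, with Rpl3l as the exception at 0.49.

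The starts of the genes were searched for what they share. RefSeq (GRCm38.p6) gave a start for 61 of the 81 genes. The letters CTTTCC or CTTTTC, the core of a TOP tract, stood on the sense strand within 50 bases of the start in 28 of the 61 genes (45.9%), against 9.35% of all 27025 genes with a start and 10.1% of 69 mitochondrial ribosomal protein genes. CCGGAAG on either strand was in 21.3%, against 5.98% and 29%, AAGATGGC on either strand in 6.56%, against 1.68% and 13.0%, and TATAAA on the sense strand in 8.20%, against 4.05% and 0% (0 of 69). These are matches of letters on either side of the start. They are no evidence of binding or of a TOP tract at the first base of the RNA, and CCGGAAG and AAGATGGC can share 3 letters. The lines below show 30 bases of 6 genes in which CTTTCC or CTTTTC (in capitals) lies near the annotated start. With the start as base 1, these letters begin at base 1 to 3 in the first 4 lines. In Rpl13a and Rps12 they begin at base 10, and so do not open the annotated RNA. The genes were picked to show the letters in both subunits, and the first pair carry the same coding sequence and differ in the bases upstream of the letters. All are given 5′ to 3′ on the gene's strand, at chr3:90213628-90213657 (minus), chr9:114982720-114982749 (minus), chr11:114668570-114668599 (plus), chr7:4792957-4792986 (plus), chr7:45128717-45128746 (minus) and chr10:23787181-23787210 (minus).
Rps27: gctttcgctcCTTTCCggcggtgacgacct
Rps27rt: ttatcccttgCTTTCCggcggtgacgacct
Rpl38: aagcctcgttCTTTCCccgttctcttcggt
Rpl28: tcgtgtctctCTTTCCgtctccggccgcca
Rpl13a: agacctcctcCTTTCCcaggcggctgccga
Rps12: caccgccggcCTTTTCccctgccgccgccg

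The comparison of DM-22 with C asks which of these genes differ after 22 weeks of untreated diabetes. All 81 genes had a higher fitted mean in DM-22 than in C, with a median log2 fold change of 0.35 and a range of 0.09 to 0.58, against a median of 0.00 over all genes tested, of which 50.7% were higher. None passed the test: limma called 0 of the 81 genes at an adjusted p under 0.05 (0% of the 13976 genes tested) and 0 at an unadjusted p under 0.05 (1.19% of all genes were higher at that level), and voom on the recovered reads gave 0 and 0 as well. The smallest adjusted p was 0.804. The SE of a member had a median of 0.27 (log2), close to the size of the differences, so a count of 0 calls does not show that the genes did not differ. The 2 DM-22 libraries lay above all 3 controls for 3 genes (Rps14, Rps19bp1 and Rplp0), where 10.8% of all genes tested did so, and C replicate 2 lay above both DM-22 libraries for 53. Scaled to library totals without TMM factors, the median of all genes moved to −0.08. All 81 genes were still higher, and their median lay 0.34 above that of all genes.

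Against C replicates 8 and 9 alone, the same 81 genes were higher with a median log2 fold change of 0.59 and a range of 0.13 to 0.86, where 50.4% of all genes were higher. At an unadjusted p under 0.05, 60 of them were then higher and 0 lower, where 10.5% of all genes were higher, and at an adjusted p under 0.05 limma called 0 members, where it called 0.0144% of all genes. The smallest adjusted p of a member was 0.0926, for Rplp1. The 60 were 31 of the 48 large-subunit and 29 of the 32 small-subunit genes, and the 21 others included Rpl3, Rpl4, Rpl5, Rpl10 and Rpl11 of the large subunit. Both DM-22 libraries lay above C replicates 8 and 9 for 80 genes, all except Rpl3l, where 29.9% of all genes tested did so. The size of the difference between DM-22 and C thus depended on whether C replicate 2 was counted. C replicate 2 lay above C replicates 8 and 9 for 80 of the 81 genes. Leaving it out therefore raises the difference of those genes from C whatever the diabetic libraries hold. It also narrowed the spread within C, and the median SE of a member fell from 0.27 to 0.18. The 81 genes share their libraries and moved together, so the 60 are not independent results.

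**Figure D4:**
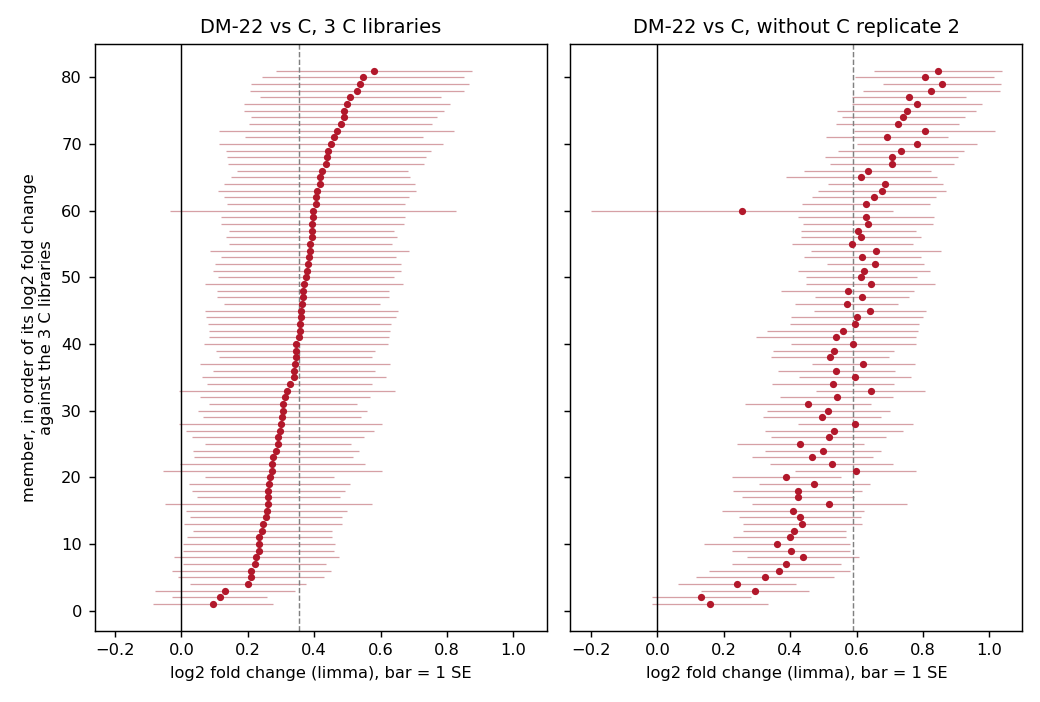
Log2 fold change of each of the 81 genes in DM-22 against C, with bars of 1 SE, in the fit with the 3 C libraries (left) and without C replicate 2 (right), in the same order of genes. The dashed lines mark the medians, 0.35 and 0.59, and all points lie right of 0 in both panels.

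The genes with the smallest p-values show what the groups looked like. Rps14, a small-subunit protein of the platform, was at 419, 232 and 249 CPM in C replicates 2, 8 and 9 and at 434 and 431 CPM in DM-22. The DM-22 libraries were above each control, C replicate 2 by the least. Its log2 fold change was 0.58 ± 0.29 (SE; limma, unadjusted p = 0.0927, adjusted p = 0.804), and 0.85 ± 0.19 without C replicate 2 (adjusted p = 0.0945).

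The stalk is the flexible arm of the large subunit that binds elongation factors, and of its 3 genes Rplp0 alone had both DM-22 libraries above each control. Rplp0 (chr5:115559467-115563727, plus strand), the base of the stalk and the member with the most CPM per gene, though not per kilobase, was at 1075, 617 and 634 CPM in C and at 1085 and 1102 CPM in DM-22, a log2 fold change of 0.55 ± 0.30 (limma, adjusted p = 0.804). Rplp1 was at 577, 290 and 303 CPM in C and at 526 and 550 CPM in DM-22, 0.54 ± 0.33 with all controls and 0.86 ± 0.18 without C replicate 2 (limma, adjusted p = 0.804 and 0.0926). Rplp2 was at 297, 165 and 169 CPM in C and at 256 and 272 CPM in DM-22. For both acidic proteins C replicate 2 was the highest of the 7 libraries.

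In the small subunit, Rpsa, the laminin-receptor protein, was at 768, 418 and 436 CPM in C and at 676 and 797 CPM in DM-22 (log2 fold change 0.50 ± 0.31). Rps19, the gene most often mutated in Diamond-Blackfan anaemia, was at 284, 175 and 179 CPM in C and at 241 and 276 CPM in DM-22. Rps27a, made as a fusion with ubiquitin, was at 262, 156 and 162 CPM in C and at 240 and 254 CPM in DM-22. In each of these the DM-22 libraries lay above C replicates 8 and 9 and on both sides of, or below, C replicate 2.

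In the large subunit, Rpl3, Rpl10, Rpl5 and Rpl11 had log2 fold changes below the median of the 81 genes. Rpl3, next to the peptidyl transferase centre, was at 498, 381 and 392 CPM in C and at 492 and 520 CPM in DM-22 (log2 fold change 0.27 ± 0.19). Rpl10, also at that centre and among the last proteins to join, was at 628, 453 and 462 CPM in C and at 557 and 662 CPM in DM-22 (0.26 ± 0.24). Rpl5 and Rpl11, which together with 5S ribosomal RNA can bind Mdm2 and so restrain the breakdown of p53, had log2 fold changes of 0.21 ± 0.22 and 0.23 ± 0.22. None of these differences passed the test with or without C replicate 2, where the unadjusted p-values of limma were 0.0567, 0.106, 0.171 and 0.0599.

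Rpl4 gave the smallest difference, 0.09 ± 0.18, and its direction turned without DM-22 replicate 2 (−0.03). By subunit, the median log2 fold change was 0.31 for the large and 0.39 for the small subunit, and 0.53 and 0.62 without C replicate 2. The difference between the subunits was not tested.

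The comparison of DM+SGLT2i with DM-22 asks which of these genes differ after 6 weeks of dapagliflozin. Effects of the drug itself and of lower glucose cannot be told apart in it. All 81 genes had a lower fitted mean in DM+SGLT2i, with a median log2 fold change of −0.34 and a range of −0.63 to −0.08, where 50.6% of all genes tested were higher. The same 2 DM-22 libraries serve in the comparison of DM-22 with C, so the opposite directions there and here are not independent results. Limma called 0 of the 81 at an adjusted p under 0.05 (0% of all genes) and 1 at an unadjusted p under 0.05, where 1.66% of all genes were lower at that level, and voom gave 0 and 1. Without C replicate 2, which also sets the common estimate of the spread, 6 were lower at an unadjusted p under 0.05 (3.93% of all genes) and 0 were called (0%). Both DM+SGLT2i libraries lay below both DM-22 libraries for 67 of the 81 genes, where 20% of all genes tested did so. The other 14, among them Rpl4, Rpl10, Rpl28, Rpl38 and Rps2, overlapped. DM+SGLT2i replicate 1, the library with adipose RNA, lay below both DM-22 libraries for all 81 genes. Without it the median was −0.12, and without DM+SGLT2i replicate 2 it was −0.57. Scaled to library totals without TMM factors, the median of all genes moved to 0.11, that of the 81 genes was −0.23, and Rpl4 alone was higher in DM+SGLT2i (0.02).

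The gene at an unadjusted p under 0.05 was Rpl22l1 (chr3:28805436-28807424, plus strand), a paralog of Rpl22 that can take its place in the ribosome. It was at 34.7 and 32.8 CPM in DM-22, at 17.4 and 26.6 CPM in DM+SGLT2i and at 34.2, 23.8 and 28.7 CPM in C. Its log2 fold change in DM+SGLT2i against DM-22 was −0.63 ± 0.25 (limma, unadjusted p = 0.0419, adjusted p = 0.881). Relative to the common level it was 0.33 low in DM+SGLT2i replicate 1 and 0.18 low in replicate 2. Rpl22 itself was at 167 and 164 CPM in DM-22, 110 and 143 CPM in DM+SGLT2i and 171, 113 and 109 CPM in C, a log2 fold change of −0.40 ± 0.26. Rps14 was at 239 and 335 CPM in DM+SGLT2i (−0.61 ± 0.32), with no overlap with DM-22.

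DM+SGLT2i and C share the controls of the first comparison, so the values are set side by side only. Against the 3 controls the median log2 fold change of DM+SGLT2i was 0.00, with 41 genes higher and 40 lower, where 47.2% of all genes were higher. Limma called 0 members (0% of all genes), 0 were at an unadjusted p under 0.05 (0.665% of all genes higher, 0.415% lower), voom gave 0 and 0, and no member separated the groups, where 5.67% of all genes did so upwards and 6.59% downwards. Against C replicates 8 and 9 alone the median was 0.22, 75 genes were higher (46.9% of all genes), and 3 (Rplp1, Rps26 and Rps12) were at an unadjusted p under 0.05 (8.68% of all genes), with 0 called (0.123% of all genes). Both DM+SGLT2i libraries lay above these 2 controls for 31 genes, where 28.2% of all genes did so. The libraries of the group differed here: replicate 2 lay above both controls for 79 genes, replicate 1 above both for 31 and below both for 32. Without DM+SGLT2i replicate 1 the median against the 3 controls was 0.22, and without replicate 2 it was −0.22.

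With the 4 diabetic libraries as one group against C, 80 of the 81 genes were higher, with a median log2 fold change of 0.17, where 50.8% of all genes were higher. Limma called 0 (0% of all genes), 0 were at an unadjusted p under 0.05 (0.68% of all genes higher) and voom gave 0 and 0. Without C replicate 2 the median was 0.39, 26 genes were higher at an unadjusted p under 0.05 (8.81% of all genes) and 0 were called (0.0217% of all genes). Without DM+SGLT2i replicate 1 the median was 0.30.

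Paralogs differed in level and in how closely they followed the common pattern. Rpl3l (chr17:24727820-24736143, plus strand), the form known from heart and skeletal muscle, shares 73.3% of aligned coding bases with Rpl3, and its level per kilobase was 1.22 against 326 CPM per kb for Rpl3. Rpl7l1, with 54.1% of aligned coding bases shared with Rpl7, was at 71.1 to 73.8 CPM in C, 71.7 and 84.9 CPM in DM-22 and 62.5 and 75.7 CPM in DM+SGLT2i, while Rpl7 ran from 316 to 526 CPM. Rpl36al, a paralog that shares 87.9% of coding bases with Rpl36a, was at 95.0 to 153 CPM and Rpl36a at 69.2 to 125 CPM, with C replicate 2 the highest library of both. Rps27l, a p53 target left out by the rule and 76.1% identical in its coding bases to Rps27, was at 151, 93.6 and 97.5 CPM in C, 125 and 142 CPM in DM-22 and 91.4 and 128 CPM in DM+SGLT2i, lowest in the same 3 libraries as most members.

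Some members have near-identical copies, and reads could be split between them. Rps27 and Rps27rt have the same 255 coding bases. Rps27rt took between 16.8% and 17.9% of the reads of the pair in every library, so their values, including the low levels in DM+SGLT2i replicate 1 (147 CPM for Rps27, 30 CPM for Rps27rt), are not independent. Rpl10 and Rpl10-ps3 are identical over 645 coding bases, Rps12 and Rps12-ps3 over 399, and Rpl9 and Rpl9-ps6 differ at 1 of 579. These copies took 33.5% to 34.2%, 27.8% to 29.3% and 24.6% to 25.5% of the reads of their pairs. The 4 listed pseudogenes summed to 626, 395 and 408 CPM in C, 561 and 612 CPM in DM-22 and 395 and 565 CPM in DM+SGLT2i. Rpl19, Rpl36al, Rps10 and Rpl13a overlap another annotated locus.

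Other genes of translation were taken from lists of known roles. Fau, which encodes RPS30 as a fusion protein, and Rack1, a scaffold on the small subunit, are parts of the ribosome that the name rule leaves out. Fau was at 378, 212 and 217 CPM in C, 348 and 354 CPM in DM-22 and 216 and 306 CPM in DM+SGLT2i, and Rack1 at 505, 333 and 352, at 485 and 530 and at 331 and 459 CPM. Both were lowest in C replicates 8 and 9 and DM+SGLT2i replicate 1, as most members were.

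Among 20 elongation factors and other genes with TOP messenger RNAs, 18 were higher in DM-22 than in C, with a median log2 fold change of 0.29, and 0 were called by limma, with 1 (Eif3h) higher at an unadjusted p under 0.05. Over all genes in DM-22 against C, and so beside this and the following lists in that comparison, 50.7% were higher and 0% were called. At an unadjusted p under 0.05, 1.19% were higher and 3.28% lower. Without C replicate 2 the corresponding shares were 50.4%, 0.0144%, 10.5% and 15%, and of the 20 genes 19 were higher, 8 of them at an unadjusted p under 0.05, with a median of 0.38 and 0 called. Eef1a1, which carries aminoacyl-tRNA to the ribosome, was at 5146, 4304 and 4330 CPM in C, 5329 and 6464 CPM in DM-22 and 3943 and 5059 CPM in DM+SGLT2i. Pabpc1, the poly(A)-binding protein, was at 400, 423 and 395 CPM in C, 375 and 461 CPM in DM-22 and 450 and 410 CPM in DM+SGLT2i. In DM+SGLT2i against DM-22, 2 of the 20 were higher (50.6% of all genes) and 5 (Naca, Npm1, Eif3e, Eif3h and Cct4) were lower at an unadjusted p under 0.05 (1.66% of all genes), with 0 called and a median log2 fold change of −0.35. Without DM+SGLT2i replicate 1 the median was −0.21. Host genes of small nucleolar RNAs, a separate list, mostly went the other way in DM-22 against C. Of the 9 tested, 2 were higher and 7 lower, with a median of −0.58. By limma 3 were lower at an unadjusted p under 0.05 (3.28% of all genes) and 0 were called. Without C replicate 2 their median was −0.82, with 4 lower at that level (15% of all genes) and 0 called.

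The genes that build the ribosome moved over a narrower range. The 40 biogenesis factors summed to 1416, 1470 and 1412 CPM in C, 1446 and 1644 CPM in DM-22 and 1413 and 1462 CPM in DM+SGLT2i, and 29 were higher in DM-22 than in C, with a median log2 fold change of 0.14. Limma called 0 and put 3 (Sbds, Rrp12 and Polr1c) higher at an unadjusted p under 0.05. Leaving out C replicate 2, 26 were higher, 5 of them at an unadjusted p under 0.05, with a median of 0.10 and 0 called. In DM+SGLT2i against DM-22, 35 of the 40 were lower, where 50.6% of all genes were higher, and the median was −0.13. At an unadjusted p under 0.05, 2 were lower (1.66% of all genes) and 1 higher (2.25% of all genes), with 0 called. Without DM+SGLT2i replicate 1, 30 were lower, with a median of −0.08. Nucleolin (Ncl), the main protein of the nucleolus, was at 270, 288 and 256 CPM in C and at 252 and 297 CPM in DM-22. The 20 genes of mTOR and of TOP control gave 0 calls and a median of 0.10, with 12 higher, 1 of them at an unadjusted p under 0.05, and without C replicate 2 the median was 0.09, with 1 higher and 5 lower at that level and 0 called. Larp1, which binds the TOP tract, was at 131, 199 and 166 CPM in C and at 138 and 208 CPM in DM-22.

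The proteins of the mitochondrial ribosome are encoded by other nuclear genes, with a median transcript length of 1288 bases. The 75 tested summed to 3948, 3274 and 3304 CPM in C, 3774 and 4078 CPM in DM-22 and 2839 and 3677 CPM in DM+SGLT2i, the same libraries being high and low but over a narrower range. In DM-22 against C, 65 of the 75 were higher, with a median log2 fold change of 0.16, and 0 were called or at an unadjusted p under 0.05. With C replicate 2 left out, 67 were higher, with a median of 0.22, 12 higher and 1 lower at an unadjusted p under 0.05 (10.5% and 15% of all genes) and 0 called. In DM+SGLT2i against DM-22, 0 of the 75 were higher (50.6% of all genes), with a median of −0.26, 1 lower at an unadjusted p under 0.05 (1.66% of all genes) and 0 called. Without DM+SGLT2i replicate 1, 58 were lower, with a median of −0.09.

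The deviation by transcript length moved with the same libraries, except among the shortest transcripts. Over the 1381 other tested genes with transcripts of up to 1000 bases, the median deviation from a gene's own mean was 0.12 in C replicate 2, −0.11 and −0.06 in C replicates 8 and 9, 0.05 and 0.14 in DM-22 and −0.24 and 0.04 in DM+SGLT2i. Over the 2273 genes with transcripts of more than 5000 bases, it was −0.15, 0.14, 0.07, −0.11, −0.12, 0.14 and 0.01 in the same order. The 62 ribosomal protein genes with short transcripts stood farther out, at 0.34, −0.35, −0.30, 0.22, 0.28, −0.32 and 0.13. For transcripts of up to 500 bases, the 385 other genes departed from this pattern, at 0.005, −0.03, 0.11, −0.06, 0.08, −0.21 and −0.003. The 19 ribosomal protein genes of that length did not, at 0.42, −0.40, −0.35, 0.29, 0.28, −0.35 and 0.15. After the median of genes of like length and GC content was subtracted, the median log2 fold change of the 81 genes was 0.22 in DM-22 against C (80 higher), −0.17 in DM+SGLT2i against DM-22 (5 higher) and 0.07 in DM+SGLT2i against C (66 higher). Without C replicate 2 the first of these was 0.38.

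**Figure D5:**
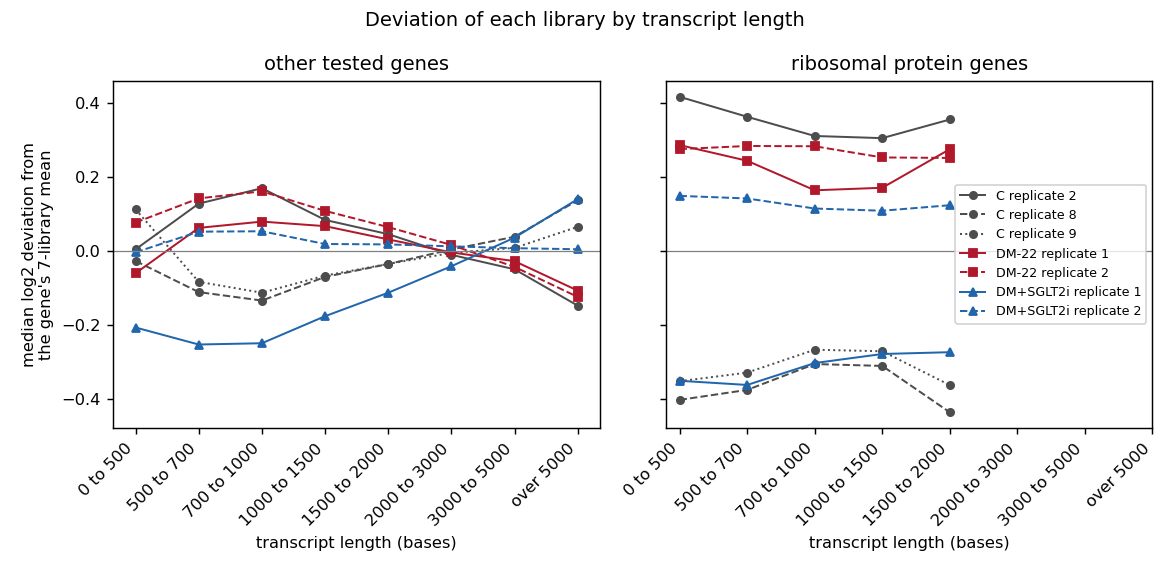
Median log2 deviation from a gene's 7-library mean by transcript length in bases, 1 line per library, for other tested genes (left) and for the ribosomal protein genes (right, bins of at least 4 genes). The lines of other genes cross near 2000 to 3000 bases, and some also change order in the bin of up to 500 bases. Those of the ribosomal protein genes stay apart at every length shown, above 0.1 or below −0.25.

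Other RNA also moved with the libraries. The summed level of 7 nuclear-retained RNAs, among them Malat1 and Neat1, was 152, 587 and 781 CPM in C, 128 and 119 CPM in DM-22 and 283 and 156 CPM in DM+SGLT2i, high in the same 3 libraries in which the ribosomal protein genes were low. Malat1, a long RNA of nuclear speckles, was at 47.5, 292 and 390 CPM in C, 32.3 and 41.8 CPM in DM-22 and 111 and 38.3 CPM in DM+SGLT2i. Of the 6 tested, 0 were higher in DM-22 than in C, with a median log2 fold change of −1.69, 2 (Neat1 and Malat1) were lower at an unadjusted p under 0.05 (3.28% of all genes) and 0 were called. Without C replicate 2 all 6 were lower at that level (15% of all genes), with a median of −2.29, and 0 were called.

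Some cell type markers were lowest in the same libraries as the ribosomal protein genes, and others were not. The 4 collecting duct markers (Slc4a1, Aqp2, Atp6v1g3 and Aqp3) summed to 697, 389 and 392 CPM in C, 934 and 458 CPM in DM-22 and 398 and 737 CPM in DM+SGLT2i, lowest in C replicates 8 and 9 and DM+SGLT2i replicate 1, as the ribosomal protein genes were. All 4 were higher in DM-22 than in C, 1 (Aqp3) at an unadjusted p under 0.05, and 0 were called. The 3 fibroblast markers summed to 384, 86.3 and 106 CPM in C, 73.4 and 77.8 CPM in DM-22 and 298 and 226 CPM in DM+SGLT2i, and the 4 macrophage markers to 237, 101 and 93.4, to 160 and 80.7 and to 135 and 152 CPM. Proximal tubule markers were low in C replicate 2 and DM-22 replicate 1 but at 13063 CPM in DM-22 replicate 2, where the ribosomal protein genes were as high. The part of transcript length, nuclear RNA and cell composition in the differences between groups was not tested beyond the subtraction for length and GC content.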

How the data were processed

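The 7 kidney libraries were grouped from the sample labels. Per the labels, reads were aligned with STAR to mm10, with versions not given in the sources used here. The authors deposited log2 values of TMM-normalised CPM for 17537 genes, with a prior averaging 2 reads. CPM were recovered by subtracting the floor of −4.66 (log2), and whole reads came out for 100% of values (tolerance 0.05 reads). Each library held at least 46456125 reads on listed genes, so counting error was small beside the spread between libraries, though less so for Rpl3l, which had the fewest reads. The p-values set group differences against the spread between libraries of a group. Differences between mice and between the pieces of tissue taken cannot be told apart in that spread. Each library is 1 mouse, and no pair of libraries was identical.

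The 13976 genes that reached 1 CPM in 2 or more libraries were fitted by limma (3.58.1, R 4.3.3, trend) on log2(CPM + 0.5), with 3 groups in one fit, two-sided p-values and Benjamini-Hochberg adjustment over all of them at 0.05. A negative binomial test had been planned. Voom on the recovered reads took its place, because the deposited unit is log2. Fold changes on this scale understate those of low genes. Lengths, GC content and loci were from GENCODE M21 (GRCm38), with the shortest principal transcript per gene and 20 bins. The fits were checked on simulated data. Whether the replicate numbers shared by DM-22 and DM+SGLT2i pair the libraries could not be decided, and the main fit left them unpaired. Members, lists and named genes (those with the smallest p-values, set roles, paralogs and extremes) were chosen with earlier results of these data known. Proteins were not used here, and 1 named gene is not reported here.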

Additional observations from a re-analysis of the deposited data

Results flagged for a closer look

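Rpl39, which encodes one of the smallest large-subunit proteins, was at 117 CPM in DM+SGLT2i replicate 1, apart from the other 3 diabetic libraries at 160.1 to 168.3 CPM. The gap to the nearest library was 0.840 of the range of the 4, above Dixon's 95% critical value for 4 samples. It was 1 of 31 results examined in this way, and chance alone flags about 1 in 20. The other members were low in that library too: all 81 lay below both DM-22 libraries there, and Rpl39 was 0.03 (log2) above their common level. In C, Rpl39 was at 204, 106 and 113 CPM.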

How the results depend on the processing

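Limma called 0 members in any comparison at pseudocounts of 0.1 and 2 CPM, without the filter, under library totals or median-of-ratios scaling, with the groups compared alone, or with any library left out, and voom called 0. With 2 or 3 mice a group, differences of this size had little chance of a call, so these zeros say nothing of stability. The numbers at an unadjusted p under 0.05 did change, and most with C replicate 2, as given above. Across the 7 fits that each left out 1 library, the median log2 fold change of the 81 genes was 0.22 to 0.59 in DM-22 against C, −0.22 to 0.22 in DM+SGLT2i against C, −0.57 to −0.12 in DM+SGLT2i against DM-22 and 0.05 to 0.39 in all diabetic against C. The highest of the first and last came without C replicate 2. With 1 library left out, the direction of up to 39 of the 81 genes turned in DM+SGLT2i against C, where the median lay at 0.00 (34 turned without C replicate 2). At most 16 turned in all diabetic against C (without C replicate 8), 3 in DM-22 against C and 3 in DM+SGLT2i against DM-22. As examples, in DM-22 against C the log2 fold change of Rpl3l ran from −0.22 to 1.01, that of Rpl4 from −0.028 to 0.22 and that of Rpl7l1 from −0.0054 to 0.24, each lowest without DM-22 replicate 2. In DM+SGLT2i against C, that of Rpl17 ran from −0.45 to 0.12 and that of Rpl5 from −0.41 to 0.075, each highest without DM+SGLT2i replicate 1. The cause was not tested. Without Rps19bp1, Rps27rt and the paralogs Rpl3l, Rpl7l1 and Rpl22l1 the median in DM-22 against C was 0.36. The replicate numbers shared by DM-22 and DM+SGLT2i were tried as a block: 0 members were called, 0 were at an unadjusted p under 0.05 and the median was −0.34. The deviations of same-numbered libraries correlated at −0.04. With 2 libraries a group both pairs give this 1 value, so it cannot decide whether the numbers pair mice. C shares fewer than 2 numbers with either group, and no paired analysis was possible there because of that. The planned negative binomial test of reads was not run.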
